A study of Mus musculus with 18 samples.

Results

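The 6 genes described here are *Nr4a1*, *Nr4a2*, *Nr4a3*, *Egr1*, *Homer1* and *Plk2*, the NR4A nuclear receptors and 3 other genes that neurons switch on soon after stimulation. They are 6 of the 12012 genes in the deposited expression table. They were chosen by name, with their values in the comparison of knockout with wild-type cultures already known, so these values selected the members. They are given as a description, and where a member is called below, that call is no support for it. The study sequenced poly-A RNA of primary hippocampal cultures from wild-type (WT) mice and from mice with a constitutive deletion of *Fibcd1* (KO), the gene of a membrane receptor that binds chondroitin sulphate. Cultures were grown with or without a coating of chondroitin sulphate proteoglycans (CSPG), the main proteoglycans of the brain's extracellular matrix. The series has 18 libraries, and the table analysed here holds 8 of them, WT CSPG replicates A to D and KO CSPG replicates A to D. Both groups therefore carry the CSPG coating, and the effect of the coating itself was not analysed here. The mice were of the C57BL/6J background, and every cell of a KO culture carries the deletion, glia included. The labels do not give the litter or the sex of the embryos behind each library, so the p-values below measure the spread between these libraries.

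Immediate early genes are transcribed within minutes of synaptic activity, calcium entry or growth factor signalling, without new protein synthesis, and many of their promoters are bound by CREB, SRF or MEF2. NR4A receptors are orphan nuclear receptors that are controlled mainly by how much of them is made and that act in the hippocampus in memory formation, while EGR1 is a zinc-finger factor of the same early wave. Homer1 and Plk2 act at the synapse: Homer proteins tie metabotropic glutamate receptors to the postsynaptic scaffold, and Polo-like kinase 2 weakens synapses after long activity. Bulk RNA of a mixed culture cannot tell fewer cells of a type from less RNA per cell.

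Reads over the genes of the table numbered 10099564 to 11174615 in the WT CSPG libraries and 10541445 to 11647202 in the KO CSPG libraries. *Fibcd1* was at 54.3, 70.4, 60.1 and 182 normalized counts in WT CSPG A to D, and at 0.970, 0.932, 7.16 and 4.74 in KO CSPG A to D, so every library was on the side its label gives. The labels call the cells neurons. All 11 neuronal markers were in the table, and markers of astrocytes, oligodendrocyte lineage cells and microglia were there too, so the cultures were mixed.

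The promoters of the members are shown first because 5 of the 6 genes share a short sequence there. RefSeq promoter windows on GRCm38.p6, from 250 bases before to 50 bases after the start site, were matched to *Nr4a1*, *Nr4a2*, *Nr4a3*, *Homer1* and *Plk2*, and *Egr1* had no entry. Each window was searched on both strands for the core of the cAMP response element (CRE), TGACG, which reads CGTCA when it lies on the opposite strand. For each gene 1 cluster of these cores before the start is given 5′ to 3′ on the strand of the gene. Cores are in capitals and positions are counted from the RefSeq start site. The cluster of *Nr4a1* holds 2 of its 4 cores, and those at -233 and -213 are not shown.
*Nr4a1* (chr15:101266769-101266818, plus strand, -77 to -28): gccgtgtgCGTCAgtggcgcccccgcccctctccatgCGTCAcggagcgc
*Nr4a2* (chr2:57124102-57124211, minus strand, -208 to -99): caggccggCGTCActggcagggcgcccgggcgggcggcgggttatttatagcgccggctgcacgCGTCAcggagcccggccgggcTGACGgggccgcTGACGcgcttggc
*Nr4a3* (chr4:48045066-48045112, plus strand, -239 to -193): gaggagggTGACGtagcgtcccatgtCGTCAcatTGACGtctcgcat
*Homer1* (chr13:93303693-93303755, plus strand, -64 to -2): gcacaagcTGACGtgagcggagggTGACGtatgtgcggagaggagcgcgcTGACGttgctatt
*Plk2* (chr13:110394974-110394997, plus strand, -70 to -47): gctcgccgTGACGTCAcgaggccc

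The whole windows held 4 cores each for *Nr4a1*, *Nr4a2* and *Nr4a3*, and 3 each for *Homer1* and *Plk2*. Those of *Nr4a1* all lay on the opposite strand, at -233, -213, -69 and -40, and those of *Homer1* all lay on the strand of the gene, at -56, -40 and -14. *Nr4a2* and *Nr4a3* had cores on both strands. In *Plk2* the cores at -62 and -59 overlap and make 1 full palindromic CRE, TGACGTCA, and another core lay at 22 bases past the start. The RefSeq start of *Nr4a3* is 152 bases downstream of the start in the deposited table, and *Homer1* has 2 RefSeq windows, of which the one nearest to the start in the table was used.

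**Figure D1:**
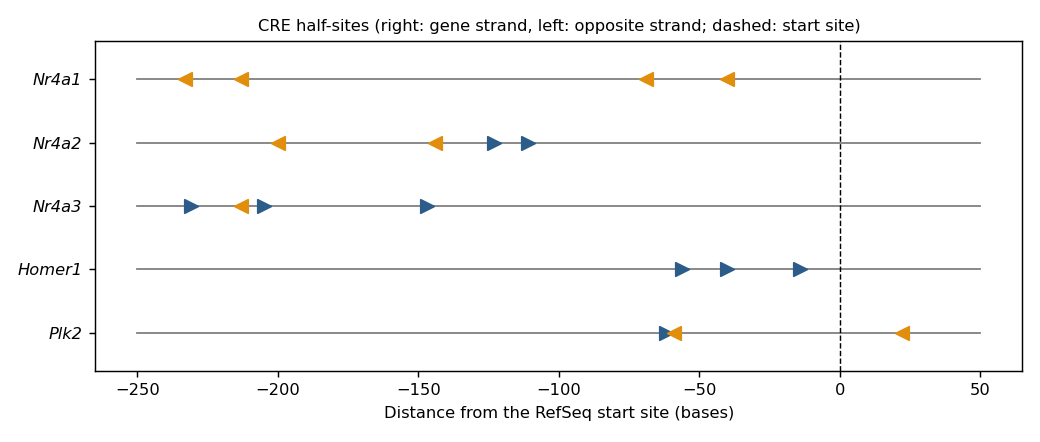
Position of each CRE core (TGACG) in the RefSeq promoter windows of 5 members; the x axis is the distance from the start site in bases, right-pointing blue triangles are cores on the strand of the gene, left-pointing orange triangles are cores on the opposite strand, and the dashed line is the start site. *Nr4a1*, *Nr4a2* and *Nr4a3* have 4 cores each, and *Homer1* and *Plk2* have 3 each, all but 1 of them before the start.

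At least 1 core was present in 20.8% of all 32851 RefSeq windows and at least 3 in 1.03%. The cut of 3 is the lowest count among the member windows, and *Plk2* reaches it with both strands of its palindrome counted. The shares at 3 are therefore descriptions and carry no test. The 5 member windows are rich in G and C, from 63.0% in *Homer1* to 81.7% in *Nr4a2*, and among the 9690 windows with a GC content of at least 60% the shares were 31.6% and 2.27%. Among the genes of the deposited table that had a window, 36.7% had at least 1 core and 2.64% had at least 3. Of the 65 related genes listed for the comparison below that had a window, 28 had at least 1 core, and *Arl4d*, *Arl5b*, *Pcsk1* and *Dusp1* had 3. The other motifs searched on both strands were the AP-1 site TGACTCA, the NR4A monomer site (NBRE) AAAGGTCA, the EGR sites GCGTGGGCG and GCGGGGGCG, and the CArG box of SRF. The only match among them was GCGGGGGCG in *Nr4a1*, on the opposite strand at -60, and this motif was in 2.91% of all windows and in 8.77% of those with a GC content of at least 60%. Of all windows, the full CRE was in 1.79% (3.03% of those rich in G and C), the AP-1 site in 5.2%, the NBRE in 1.51%, GCGTGGGCG in 0.612% and the CArG box in 1.63%. The members were known as activity-induced genes when they were chosen, and a match describes letters in a window, not a bound site or a cause.

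The members spanned a wide range of levels. Per kilobase of the gene's length in the table, *Nr4a3* was the highest, with a mean of 1212 normalized counts per kb in the WT CSPG libraries and 1061 in the KO CSPG libraries, and 97.7% of the genes of the table were lower. *Plk2* followed at 853 and 782 per kb, *Nr4a2* at 263 and 189, *Homer1* at 128 and 115, *Nr4a1* at 98.4 and 91.7, and *Egr1*, the lowest, at 33.0 and 28.4. No neighbours in this order overlapped within a group: the closest, *Homer1* and *Nr4a1*, ranged from 124 to 133 against 83.6 to 114 per kb in WT CSPG and from 111 to 119 against 81.5 to 97.2 per kb in KO CSPG. The length of *Homer1*, 10502 bases, covers all of its transcripts, so the level per kilobase of a single form was not measured.

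*Nr4a2* (Nurr1, a receptor needed by midbrain dopamine neurons and also expressed in hippocampal neurons) showed the largest difference between the groups among the members. It lies on chromosome 2, from 57106830 to 57124003 on the minus strand. WT CSPG replicates A to D had 1160, 937, 1109 and 1064 normalized counts, and KO CSPG replicates A to D had 680, 804, 812 and 774. All 4 KO CSPG libraries were below all 4 WT CSPG libraries. The means were 1068 ± 95.6 and 767 ± 60.6 (SD, n = 4), which is 28.1% lower in KO CSPG and a log2 fold change of -0.48 (SE 0.07) on the log2(value + 1) scale.

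*Nr4a3* (NOR-1), the most abundant member, lies on chromosome 4, from 48045153 to 48086447 on the plus strand. It was at 7547, 7081, 7514 and 6879 normalized counts in WT CSPG A to D and at 6171, 6455, 6290 and 6494 in KO CSPG A to D. The groups did not overlap here either, and the gap was small beside the level. The means were 7255 ± 329 and 6353 ± 150 (SD, n = 4), 12.4% lower in KO CSPG, with a log2 fold change of -0.19 (SE 0.03).

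*Nr4a1* (Nur77), the receptor of the family best known as a marker of recent activity, lies on chromosome 15, from 101266846 to 101274792 on the plus strand. It was at 283, 207, 272 and 211 normalized counts in WT CSPG A to D and at 202, 241, 240 and 225 in KO CSPG A to D. The groups overlapped: only KO CSPG A was below the lowest WT CSPG library, and WT CSPG A and C stood above every KO CSPG library. The means were 243 ± 40.1 and 227 ± 18.3 (SD, n = 4), 6.81% lower in KO CSPG, with a log2 fold change of -0.09 (SE 0.10), smaller than its error. The spread in WT CSPG, a coefficient of variation of 16.5%, was wider than the 6.51% that counting reads alone gives at this level.

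Within the NR4A family, *Nr4a2* took a smaller share in KO CSPG. As a share of the summed level per kilobase of the 3 receptors, *Nr4a2* made up 16.7% ± 0.927 in WT CSPG and 14.1% ± 0.751 in KO CSPG (SD, n = 4). The libraries ranged from 15.4% to 17.5% in WT CSPG and from 13.1% to 14.8% in KO CSPG, with no overlap. *Nr4a3* made up 77.1% ± 1.34 and 79.1% ± 1.13, and *Nr4a1* 6.22% ± 0.678 and 6.83% ± 0.386, and for both the ranges of the groups overlapped. These shares come from the same values that chose the members and were not tested.

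*Egr1*, a transcription factor that is a standard marker of activated neurons, lies on chromosome 18, from 34859823 to 34864984 on the plus strand. It was at 154, 124, 175 and 139 normalized counts in WT CSPG A to D and at 137, 112, 134 and 126 in KO CSPG A to D. The highest values were those of WT CSPG C and A, and the remaining WT CSPG libraries lay among or beside the KO CSPG ones. The means were 148 ± 21.4 and 127 ± 11.1 (SD, n = 4), 14.0% lower in KO CSPG, with a log2 fold change of -0.21 (SE 0.10). This fold change is close to that of *Nr4a3* and its error is wider, at a level so low that counting alone gives a coefficient of variation of 8.52%.

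*Homer1*, the postsynaptic scaffold gene, lies on chromosome 13, from 93303757 to 93404129 on the plus strand. It was at 1399, 1321, 1367 and 1302 normalized counts in WT CSPG A to D and at 1204, 1247, 1167 and 1201 in KO CSPG A to D. The groups did not overlap. The means were 1348 ± 43.9 and 1205 ± 32.4 (SD, n = 4), 10.6% lower in KO CSPG, with a log2 fold change of -0.16 (SE 0.04). The table gives 1 value for the gene, so the short form induced by activity, Homer1a, cannot be told apart from the long scaffold forms.

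*Plk2* (also called Snk), the kinase, lies on the same chromosome, from 110395044 to 110400844 on the plus strand. It was at 2443, 2353, 2447 and 2322 normalized counts in WT CSPG A to D and at 2136, 2212, 2127 and 2293 in KO CSPG A to D. The groups did not overlap, although KO CSPG D was close to WT CSPG D. The means were 2391 ± 63.1 and 2192 ± 77.3 (SD, n = 4), 8.33% lower in KO CSPG, with a log2 fold change of -0.13 (SE 0.03). For *Homer1* and *Plk2* the WT CSPG libraries varied little more than counting reads alone allows, with coefficients of variation of 3.26% and 2.64% against 2.80% and 2.09% from counting.

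**Figure D2:**
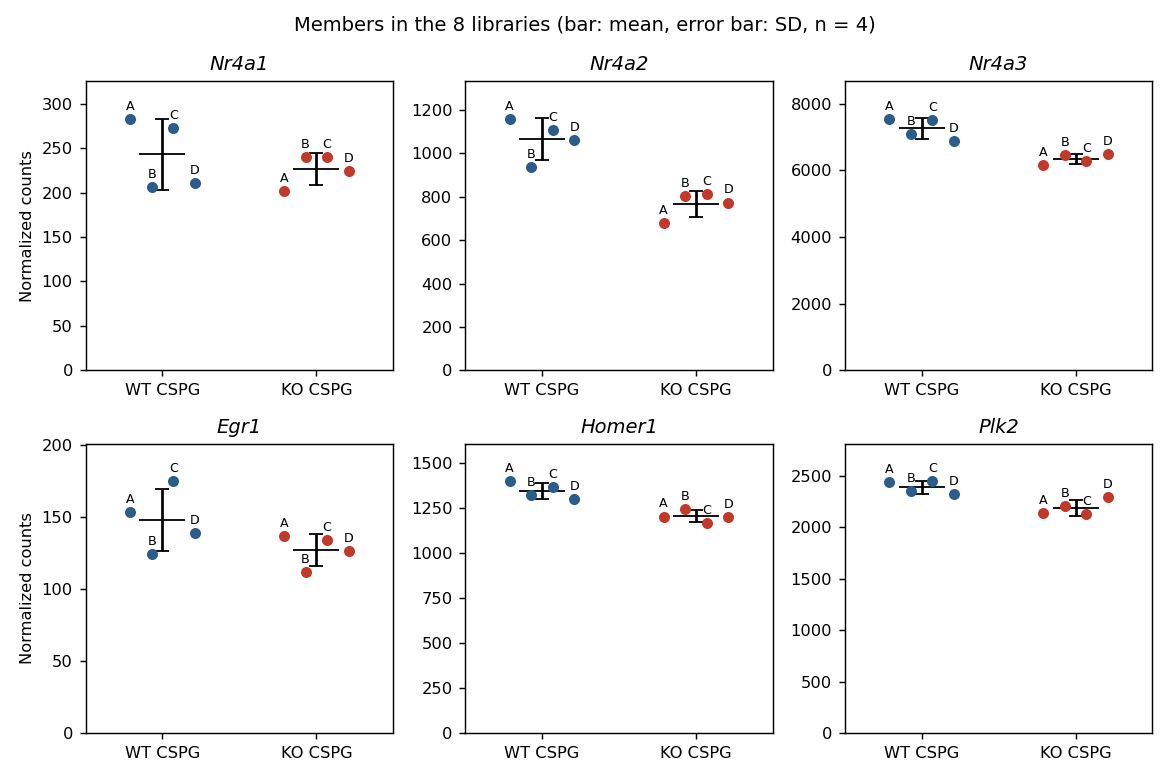
Normalized counts of the 6 members in each library; each panel is a gene with its own y axis from 0, points are libraries labelled by replicate letter, horizontal bars are means and error bars are SD (n = 4 a group). *Nr4a2* has a mean of 1068 in WT CSPG against 767 in KO CSPG with no overlap, while the points of *Nr4a1* and *Egr1* overlap between the groups.

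All 6 members had a lower mean in KO CSPG, with a median log2 fold change of -0.18 and a range from -0.48 to -0.09, and the median over all genes was 0.000156. With limma's moderated test over the 12012 genes, 2.88% of genes passed an adjusted p of 0.05, 1.79% lower and 1.09% higher in KO CSPG, and 5.17% of genes had every KO CSPG library below every WT CSPG library. In numbers, 215 genes were called lower and 131 higher, against 178 and 182 with upper-quartile scaling. *Nr4a2*, *Nr4a3*, *Homer1* and *Plk2* were among the genes called lower and among those that did not overlap, and *Nr4a1* and *Egr1* were in neither set. Since these values chose the members, nothing is read from those counts. Without the variance trend, 1 member (*Nr4a2*) was called, and with the summed level of Y-linked genes as a covariate, 0 members were called. With that covariate the log2 fold changes of *Nr4a1* and *Egr1* turned to 0.23 (SE 0.33) and 0.54 (SE 0.32), with wider errors than without it. The call of *Homer1* ended without WT CSPG A, WT CSPG C, KO CSPG A or KO CSPG C, and that of *Plk2* in 6 of the 8 fits that left out a library, all but those without WT CSPG D or KO CSPG D.

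The Y-linked level differs between the groups. All 4 Y-linked genes were called lower in KO CSPG, and their sum was 1557 to 1935 normalized counts in WT CSPG and 878 to 1092 in KO CSPG, so genotype and the covariate, of whose variance genotype explained 91.2%, cannot be told apart. Markers of the oligodendrocyte lineage moved with the groups as well. Their sum was 1151 to 1512 in WT CSPG and 1769 to 1966 in KO CSPG, with *Olig1* and *Olig2* called among the 9 markers (log2 fold changes of 0.59 and 0.79, limma adjusted p = 2.33e-07 and 1.20e-06). Of the 11 neuronal markers, whose sum was 85950 to 91800 in WT CSPG and 84560 to 87380 in KO CSPG, *Neurod2* and *Neurod6*, factors of glutamatergic neurons, were called lower (-0.21 and -0.19, limma adjusted p = 0.000799 and 0.0118). The other 9 were not called, and 6 of the 11 had a lower mean in KO CSPG. Among those not called, *Slc17a6* was at -0.14 and *Slc17a7* at 0.14. No marker of interneurons (8 of 8 in the table), astrocytes (8 of 9), microglia (6 of 9) or dividing cells (6 of 6) was called, nor was one of endothelial cells (1 of 6), fibroblasts (4 of 6), mural cells (3 of 6) or choroid plexus (4 of 6). The part of cell make-up and of embryo sex in the lower values of the members was not tested.

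Which members moved together was examined in the differences among libraries of 1 genotype, which do not enter the fold changes. Each library's log2 value was taken as a deviation from the mean of its genotype. WT CSPG A and C were the highest libraries of that group for 6 of 6 members, an order that 19.5% of all genes also had. The KO CSPG libraries shared no such order: replicate A was the lowest for the 3 NR4A genes and the highest for *Egr1*, and *Homer1* and *Plk2* were lowest in replicate C. Replicate letters carry no order, and the labels do not say whether libraries of the same letter in both groups are paired.

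**Figure D3:**
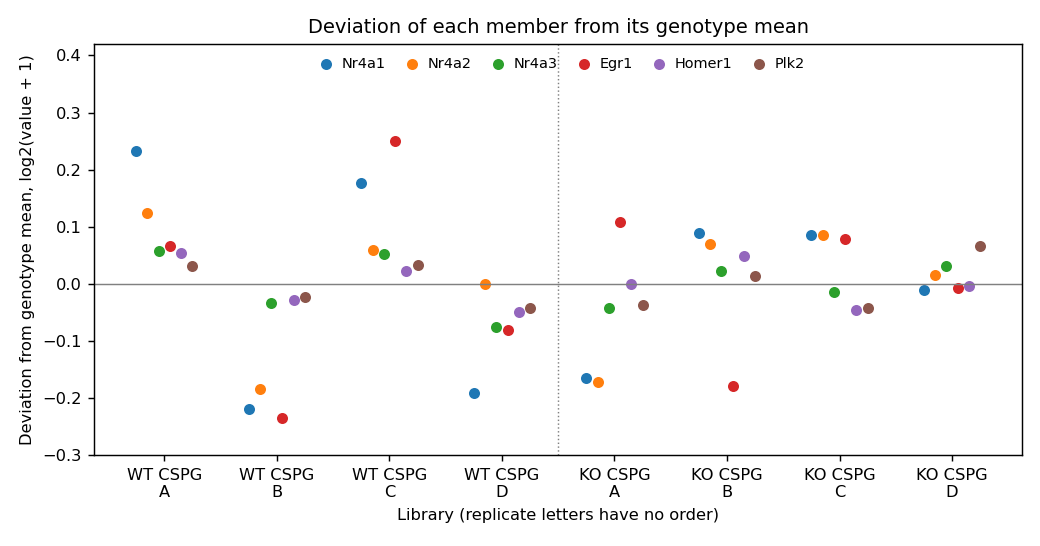
Deviation of each member from its genotype mean in log2(value + 1), on the y axis, in each of the 8 libraries, on the x axis, with a colour for each gene. In WT CSPG A and C every member is at or above its group mean and in WT CSPG B every member is below it, while in KO CSPG the members lie on both sides of 0 in each library.

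Over the 8 libraries the deviations were positively correlated for 15 of the 15 pairs of members, with a median Pearson r of 0.575 and a range from 0.16 to 0.879. The share of positive pairs over all genes was not computed. Of all genes, 98.8% had a lower r with *Nr4a1* than *Nr4a2* had, and 99.1% had a lower r with *Nr4a3* than *Plk2* had. Only 61.9% had a lower r with *Egr1* than *Homer1* had. In the 4 WT CSPG libraries alone 15 of the 15 pairs were positive, with a median r of 0.843, while in the 4 KO CSPG libraries alone 9 were positive, with a median of 0.162 and a range from -0.827 to 0.988, and *Egr1* was negative with all 5 other members. With 4 libraries a group these values are descriptions, and the difference between the genotypes was not tested. *Nr4a1* and *Nr4a2* had r = 0.857 and Spearman's rho = 0.881, with an exact two-sided permutation p of 0.00347 over the 576 orders within genotype (0.0521 adjusted over the 15 pairs). Without WT CSPG B and D, the 2 libraries farthest from the median of *Nr4a1*, this pair had r = 0.924. *Nr4a3* and *Plk2* had r = 0.855 and rho = 0.762, with an exact permutation p of 0.0208 for r (0.156 adjusted) and 0.0347 for rho (0.26 adjusted). Without WT CSPG A and D, the 2 libraries farthest from the median of *Nr4a3*, this pair had r = 0.854. The highest r, 0.879 for *Nr4a1* and *Nr4a3* (rho = 0.857), had an exact permutation p of 0.0816 (0.29 adjusted) and was 0.822 without WT CSPG B and D. So 2 of the 15 pairs passed an unadjusted p of 0.05 in this exact permutation test and 0 passed after adjustment, for r or for rho, and with upper-quartile scaling 1 pair passed after adjustment for r. The 5 pairs that include *Egr1* ranged from 0.16 with *Homer1* to 0.513 with *Nr4a1*. Leaving out, for each pair, the 2 libraries farthest from the median of its first gene took *Egr1* with *Homer1* to -0.197 and left 13 of the 15 pairs positive.

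**Figure D4:**
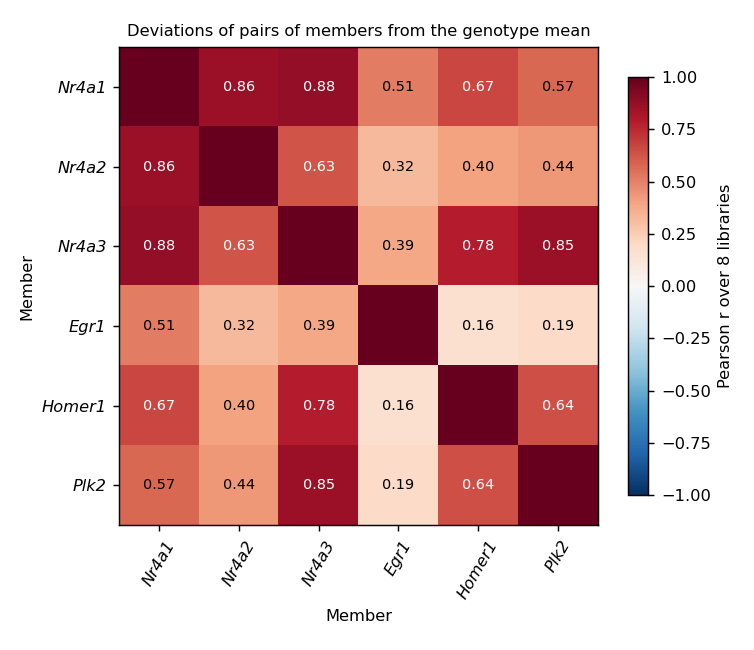
Pearson r of the deviations from the genotype mean for each pair of members over 8 libraries; both axes list the 6 members and the colour scale runs from -1 to 1. The darkest cells are *Nr4a1* with *Nr4a3* (0.879), *Nr4a1* with *Nr4a2* (0.857) and *Nr4a3* with *Plk2* (0.855), and the palest is *Egr1* with *Homer1* (0.16).

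Genes outside the list that were most like the members in this respect were found by the Pearson r, over the 8 libraries, between a gene's deviation and the mean standardized deviation of the 6 members. *Hpgds* had the highest value (0.982), and *D230025D16Rik* (0.969), *R3hdm1* (0.962) and *Cep120* (0.96) were also near the top. These values are from a ranking of all other genes of the table on 8 libraries and carry no test. Of these 4, only *R3hdm1* was called lower in KO CSPG, with a log2 fold change of -0.16 and a limma adjusted p of 0.0322, while *Hpgds* had a mean of 116 in the WT CSPG libraries and 133 in the KO CSPG libraries. *Scg2*, which encodes the secretory granule protein secretogranin II, ranked 6 at r = 0.959.

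The rest of the early-response pathway was described with 10 lists of related genes, of which 89 of 101 genes were in the table. All of these lists were chosen with earlier results of these data known, so their calls, p-values and medians are descriptions. Of these 89, 6 were called lower and 1 higher in KO CSPG, 63 had a lower mean, and the median log2 fold change was -0.05. Listed relatives that are absent from the table include *Egr2*, *Egr3*, *Egr4* and *Arc*.

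The AP-1 subunits, the Fos and Jun factors of the same early wave, included *Fosb*, the gene with the largest change among the 89. Of 8 AP-1 genes, 2 were called lower and the median was -0.28. *Fosb* fell from 94.2 ± 11.9 to 25.9 ± 3.30 normalized counts (SD, n = 4 a group), a log2 fold change of -1.82 (SE 0.15, limma adjusted p = 2.36e-08). *Fosl2* fell from 2386 ± 125 to 1685 ± 101, a log2 fold change of -0.50 (SE 0.04, limma adjusted p = 2.33e-07), close to that of *Nr4a2*. *Fos*, *Jun* and *Jund* were not called, at -0.23, -0.04 and -0.15. In the EGR list, *Nab2*, a co-repressor that binds EGR1 and is itself an EGR target, fell from 105 ± 10.6 to 68.0 ± 8.05 (log2 fold change of -0.62, SE 0.12, limma adjusted p = 0.00443), while *Nab1* was not called at -0.13.

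Among 18 other early-response genes 0 were called by limma, with a median of -0.16, and among them the most abundant, *Arl5b*, *Ier5* and *Per1*, were at -0.01, -0.16 and -0.07. *Npas4*, a factor induced selectively by calcium entry in neurons and named after its values were seen, was at 254 ± 55.9 and 174 ± 23.0, a log2 fold change of -0.53 that was not called (limma adjusted p = 0.121). Of 10 late-response and secreted genes, 2 were called lower and the median was -0.14. *Nptx2*, a secreted pentraxin that clusters AMPA receptors, fell from 176 ± 9.58 to 120 ± 15.4 (-0.55, SE 0.10, limma adjusted p = 0.00138). *Pcsk1*, a protease that processes neuropeptide precursors, fell from 163 ± 19.7 to 117 ± 15.4 (-0.47, SE 0.11, limma adjusted p = 0.0123). The abundant *Scg2*, *Vgf* and *Rgs2* were not called, at -0.10, -0.17 and -0.05.

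Upstream of the members, 0 of 14 genes of CREB and calcium signalling were called, with a median of -0.02, and *Camk2b*, *Prkacb* and *Camk4* were at -0.01, 0.02 and -0.16. Of 9 SRF, ELK and MEF2 genes, *Mkl2*, a coactivator of SRF, fell from 505 ± 28.7 to 438 ± 18.1 (-0.20, SE 0.06, limma adjusted p = 0.0433). *Mef2c* was the gene called higher, from 1821 ± 132 to 2208 ± 152 (0.28, SE 0.06, limma adjusted p = 0.0187). The call of *Mkl2* ended in 7 of the 8 fits that left out a library, all but the one without WT CSPG C, and that of *Mef2c* ended without KO CSPG A or KO CSPG C. The call of *Pcsk1* ended without WT CSPG A, WT CSPG C or KO CSPG A. None of the 8 genes of MAP kinase feedback, which limits the duration of the response, was called (median -0.04).

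Apart from *Nab2*, given above, partners of the members were listed with the retinoid X receptors, the Homer relatives and the Polo-like kinases. In these lists 0 genes were called by limma. The retinoid X receptors, with which *Nr4a1* and *Nr4a2* products can pair, were at 0.09 (*Rxra*), 0.01 (*Rxrb*) and -0.02 (*Rxrg*), and 0 of 3 were called. Of 10 Homer relatives and binding partners 0 were called, with a median of 0.000281, and *Shank1*, *Grm5* and *Dlgap1* were at -0.02, 0.13 and -0.06. Of 7 Polo-like kinases and Plk2 substrates 0 were called, with a median of -0.02, and *Sipa1l1* was at -0.03. A missed threshold does not show that these genes were equal in the groups.

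**Figure D5:**
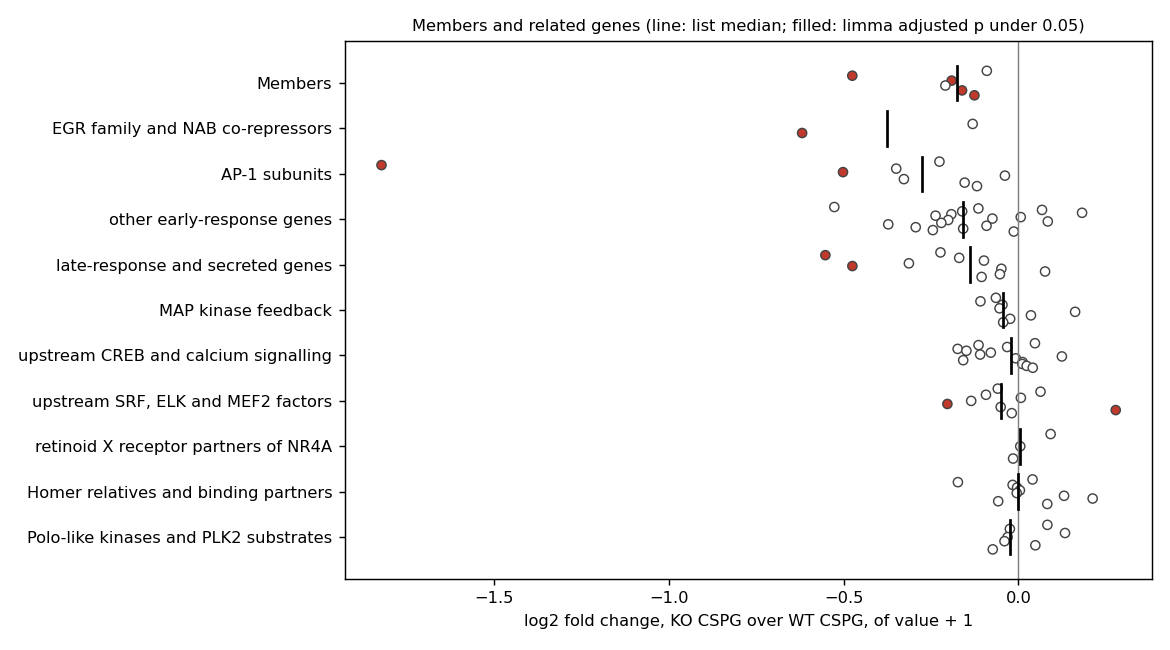
Difference between the groups (KO CSPG minus WT CSPG) in mean log2(value + 1), on the x axis, for the members and 10 lists of related genes, on the y axis; each point is a gene, filled where limma's adjusted p is under 0.05, and the vertical bars are list medians. The medians of the members and of the AP-1, EGR, other early-response and late-response lists lie farthest left of 0, *Fosb* is the leftmost point at -1.82, and the medians of the partner lists are near 0.

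The related genes were also ranked by how far they deviated with the members across the 8 libraries. The median r with the members' mean deviation was 0.653 for the late-response genes, 0.503 for the other early-response genes, 0.463 for AP-1 subunits and 0.372 for MAP kinase feedback. It was 0.184 for Polo-like kinases and Plk2 substrates and 0.0662 for the 2 genes of the EGR list. It was -0.203 for CREB and calcium signalling, -0.26 for SRF, ELK and MEF2 factors, -0.438 for Homer partners and -0.439 for retinoid X receptors, and 0.0102 over all genes. *Bdnf*, which encodes a growth factor released by active neurons and was named after its values were seen, had r = 0.9 and a log2 fold change of -0.22 that was not called (limma adjusted p = 0.481). The deviations of all lists share the same 8 libraries, and these values are descriptions. Among marker lists, the median r was -0.543 for astrocytes, -0.655 for the oligodendrocyte lineage, -0.749 for mural cells, -0.648 for choroid plexus, -0.371 for fibroblasts, -0.163 for neurons and -0.326 for the 1 endothelial marker. It was 0.426 for interneurons, 0.296 for dividing cells and 0.224 for microglia. Markers within a list could differ widely, and those of neurons ran from -0.926 (*Slc17a7*) to 0.795 (*Slc17a6*). The part of these cell types in the deviations of the members was not tested.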

How the data were processed

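Poly-A RNA was sequenced from WT CSPG and KO CSPG hippocampal cultures, 4 libraries a group. The authors deposited a normalized signal, each library's reads per gene after division by its size factor (mm10 and DESeq2 per the submitters' processing notes). The aligner and counting program are not given in the sources used here. Values were whole multiples of 1 step per library (to within 5.8e-11 of a read), and no gene had a mean under 40.7, so weaker genes had been left out. The table's own columns of the authors' comparison (fold change, standard error, test score, p-values) were not used, and 0 per-sample columns were left unused.

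The test was limma 3.58.1 (R 4.3.3) on log2(value + 1) (moderated variances with trend, robust), with Benjamini-Hochberg adjustment over 12012 genes and a threshold of 0.05. In simulated data for this comparison over 12012 genes, 81 of 100 genes changed by 0.5 and 98 of 100 changed by 1 (log2) were recovered, with 3 of 11812 unchanged genes called. The models for counts that had been planned were not run, and the test used the normalized values. The members and all gene lists were chosen with earlier results of these data known. Genes named were the members, the called genes of each pathway list with up to 3 further genes by level, the 5 genes most like the members, and markers beside a result. Some genes under this rule are not reported here. Alternatives were the pseudocount, scaling, a filter, no variance trend, a replicate block, a Y-linked covariate and leaving out each library. Depth, given in the report, sets the counting error quoted, which covers counting only.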

Additional observations from a re-analysis of the deposited data

Results flagged for a closer look

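Of 26 groups of 4 libraries examined, those of the 6 members and of the 7 related genes called by limma, 3 had a library far from the other 3 by Dixon's test, and chance alone gives about 1 in 20, or 1.3. *Nab2* was at 88.8 normalized counts in WT CSPG A and between 109 and 111 in the other WT CSPG libraries. *Fosl2* was at 2201 in WT CSPG B and between 2430 and 2470 in the others. *Mef2c* was at 1623 in WT CSPG B and between 1875 and 1906 in the others. None of the 6 members had such a library in either group.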

How the results depend on the processing

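The number of genes called, 346 (131 higher, 215 lower), was 80 (28 and 52) with no variance trend, 2 (1 and 1) with the Y-linked covariate, and 186 to 576 (62 to 286 and 124 to 290) when each library was left out. The 4 member calls became 3 with upper-quartile scaling, where *Plk2* at -0.11 was lost, and upper-quartile scaling split the calls of all genes into 182 higher and 178 lower. They became 1 with no trend, where *Nr4a3*, *Homer1* and *Plk2* kept log2 fold changes of -0.19, -0.16 and -0.13, 0 with the Y-linked covariate, and 2 to 4 when a library was left out. With that covariate the fold changes of *Nr4a1* and *Egr1* changed sign to 0.23 (SE 0.33) and 0.54 (SE 0.32). Those of *Nr4a2*, *Nr4a3*, *Homer1* and *Plk2* were -0.32 (SE 0.24), -0.12 (SE 0.10), -0.15 (SE 0.13) and -0.068 (SE 0.12), all with wider errors than in the main fit. The cause was not tested. Leaving out each library gave -0.16 to -0.01 for *Nr4a1*, -0.54 to -0.42 for *Nr4a2*, -0.22 to -0.17 for *Nr4a3*, -0.29 to -0.13 for *Egr1*, -0.18 to -0.14 for *Homer1* and -0.15 to -0.11 for *Plk2*. *Nr4a2* and *Nr4a3* were called in all 8 of these fits. The values that chose the members enter every fit, so the member calls describe the fits and are no support for the members. The 7 pathway calls became 4 with no trend, 11 with a replicate block, 0 with the covariate and 4 to 10 with a library left out. The labels do not say whether the replicate letters pair the libraries. Across genes, deviations of WT CSPG and KO CSPG libraries of the same letter had r of -0.074, 0.096, 0.27 and -0.0051 for A to D. These values cannot decide whether the letters are pairs. The replicate block gave 429 genes called, left 4 members called and ended the call of *Mef2c* (limma adjusted p = 0.135). Of the pairs of members, 1 passed after adjustment with upper-quartile scaling. With a library left out the orders are too few for a lone pair to pass, so those fits say nothing of the pairs. Pseudocounts of 0.1 and 10 and a minimum of 10 in every library changed none of the member calls. Models for counts were not run. At the depth of these libraries the lowest member, *Egr1*, rests on few reads, which limits what could be seen for it.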
